A study of Mus musculus with 12 samples.

Results

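Gdf3 was set beside 9 other genes of the transforming growth factor beta (TGF-beta) pathway in bone marrow derived macrophages from old and young mice. The 10 genes, taken by symbol from a table of 55401 genes, were the ligands Gdf3, Gdf15, Tgfb1, Tgfb2, Tgfb3 and Inhba, the receptors Tgfbr1 and Tgfbr2, and the signal carriers Smad2 and Smad3. Gdf3 heads the list because an earlier test of these same counts called it higher in old cells, so its difference with age is described here and is no separate evidence, while the other 9 are present by name and family. The 12 bulk RNA-seq libraries comprised 6 old ones, from mice aged 12 months, and 6 young ones, from mice aged 8 weeks. All came from mice of C57BL6 background, and in both groups marrow cells were grown with macrophage colony-stimulating factor (M-CSF, 20 ng/mL) and taken on day 7. The cells had therefore spent the culture period outside the animal, and exposure to nanoparticles, the wider subject of the series, is named for none of the 12. Whether each replicate is its own mouse is not stated in the labels, and p-values reflect variation among these libraries alone.

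TGF-beta family ligands are secreted dimers that bind a pair of type II receptors, which then phosphorylate a pair of type I receptors. The TGF-beta and activin branch passes the signal to Smad2 and Smad3 and the bone morphogenetic protein (BMP) branch to Smad1 and Smad5, and both carry it to the nucleus with Smad4. Macrophages are known as a main source of TGF-beta 1, which is made in a latent form and must be released to act. Gdf3, or growth differentiation factor 3, is best known from early mouse embryos and stem cells, and in mice it is also made by macrophages of muscle and fat. Gdf15 is an outlying family member, induced by cell stress, whose receptor in mammals is a hindbrain protein outside the TGF-beta receptor family.

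The proximal promoters of the most abundant and of a nearly silent TGF-beta gene are shown, since transcripts of these closely related ligands lay at opposite ends of the range measured here. Both runs are the 250 bases before the gene's start in RefSeq on GRCm38.p6, read 5′ to 3′ on the gene's own strand, that of Tgfb2 at chr1:186705990-186706239 on the minus strand and that of Tgfb1 at chr7:25686752-25687001 on the plus strand. Capitals mark matches, on either strand, to any of 9 short motifs searched.
Tgfb1: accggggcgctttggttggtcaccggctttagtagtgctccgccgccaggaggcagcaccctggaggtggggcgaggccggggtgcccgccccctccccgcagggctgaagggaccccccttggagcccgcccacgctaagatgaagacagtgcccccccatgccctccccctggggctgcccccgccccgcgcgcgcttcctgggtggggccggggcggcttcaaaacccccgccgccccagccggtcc
Tgfb2: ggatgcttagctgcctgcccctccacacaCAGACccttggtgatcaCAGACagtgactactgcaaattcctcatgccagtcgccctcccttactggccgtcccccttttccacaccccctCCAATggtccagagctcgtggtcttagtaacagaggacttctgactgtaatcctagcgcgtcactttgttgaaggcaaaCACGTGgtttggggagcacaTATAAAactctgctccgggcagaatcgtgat
The Tgfb1 window held none of the 9 motifs, 75.2% G and C, and 21 CpG pairs. The Tgfb2 window held 53.6% G and C and 8 CpG pairs, with a TATA box at position -31, an E-box at -51, a CCAAT box at -130 and SMAD boxes at -221 and -204 from the start. Of 32851 promoters of the same length, 12.4% held the TATA box TATAAA, 6.02% the E-box CACGTG, 33.8% the CCAAT box CCAAT and 42.2% the SMAD box CAGAC. The other motifs searched were TGANTCA (the AP-1 site, in 6.75% of promoters), GGCGCC (a GC-rich SMAD site, 9.59%), GAGGAAGT (the PU.1 core, 2.44%), the NF-kB site (1.21%) and the DR1 element bound by nuclear receptors (0.0335%). Promoter sequences were matched for 7 of the 10 genes, without Gdf3, Tgfb3 and Smad2. A match is a string of letters and not a measured binding site.

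The libraries held 19.3 to 22.4 M assigned counts in the old group and 22.2 to 25.2 M in the young group (1 M is 1000000). Macrophage transcripts were abundant throughout: 8 macrophage genes, Lyz2, Csf1r, Adgre1 and Cd68 among them, summed to 32370 to 43490 CPM (counts per 1000000 counts, TMM scaled) in old and 27000 to 44720 CPM in young libraries. Of 9 lists of genes marking other cells that such cultures could hold, none had a gene called between the ages. Calls at an edgeR adjusted p under 0.05 were rare, at 2 of all 12620 genes tested, or 0.0158%. Many markers were too low to test: 0 of 7 T and NK cell markers and 1 of 6 B and plasma cell markers were tested. The lack of a call therefore does not show that the groups held the same cells. Old replicate 6 had 366 CPM of 8 osteoclast markers, against 138 CPM at most in young libraries. Atp6v0d2 alone made up 335 CPM of that sum, so it reflects mainly this gene and not the list. The other old libraries had 57.7 to 143 CPM of Atp6v0d2 and the young ones 65.1 to 122 CPM. Old replicate 6 also had 24.1 CPM of T and NK cell markers, against 0.0884 CPM at most in young libraries. Calcr, Pax5, Col3a1, Lum and Hbb-bs had no count in any library, yet other genes of their lists did. Stromal and endothelial markers, Kdr the highest, summed to 20.67 to 49.95 CPM in old and 24.59 to 51.91 CPM in young libraries. For erythroid and megakaryocyte markers, Pf4 the highest, these were 20.78 to 51.67 and 25.77 to 43.18 CPM. Neutrophil markers, Csf3r the highest, summed to 124.8 to 232.9 and 72.09 to 220.6 CPM. Monocyte and progenitor markers, Ccr2 the highest, summed to 45.45 to 96.99 and 45.73 to 81.75 CPM. Cell cycle transcripts differed between libraries of both groups: the mean log2 CPM of 38 cell cycle genes was 5.91 in old replicate 2 and 5.36 in old replicate 3, against 3.79 to 4.20 in the other old libraries, and was 6.55 in young replicate 6, against 4.07 to 5.00 in the other young libraries. Young replicate 6 held the highest or lowest value of the 12 libraries in 51.0% of the 12620 genes tested, old replicate 6 in 38.4% and young replicate 5 in 28.2%. In bulk RNA a change in the share of a kind of cell and a change in RNA per cell cannot be told apart.

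Gdf3 transcripts were 2.10-fold more abundant in old macrophages. Gdf3 stood at 125, 134, 145, 94.1, 134 and 94.8 CPM in old libraries, against 41.3, 63.6, 68.4, 53.8, 60.7 and 57.9 CPM in young ones. The lowest old library lay above the highest young library, and the groups did not overlap. Means were 121 ± 21.6 CPM in old and 57.6 ± 9.41 CPM in young libraries (SD, n = 6 each), a fold of 2.10 with 1.74 to 2.54 spanned by 2 standard errors. The counts behind these values were 15629 over the old and 8032 over the young libraries. Relative spread was alike, with a coefficient of variation of 17.8% in old and 16.3% in young libraries. Per kilobase of annotated exon, Gdf3 lay at the 92.7th percentile of tested genes in old and at the 83.9th percentile in young macrophages. The values that chose it were a log2 fold change of 1.07 (standard error 0.14) and an edgeR adjusted p of 0.0106, the second lowest of all genes. Calls at an adjusted p of 0.05 numbered 2 of 12620 genes, or 0.0158%, and Cpne8, the next gene in that order, had an edgeR adjusted p of 0.0707. Groups that do not overlap, with old above young, were seen for 15 genes, or 0.119% of those tested.

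Within the old group 4 libraries lay between 125 and 145 CPM of Gdf3, and replicates 4 and 6 lay lower, at 94.1 and 94.8 CPM. These still exceeded the highest young value, 68.4 CPM. Old replicates 2 and 3, the old libraries with most cell cycle transcript, were among the 4 higher ones, whereas young replicate 6, the library with the most of all, had 57.9 CPM, close to the young median. Without these 3 libraries Gdf3 was at 112 ± 20.6 CPM in old (SD, n = 4) and 57.6 ± 10.5 CPM in young libraries (SD, n = 5), the log2 fold change was 0.96, and the edgeR adjusted p was 0.121. When the cell cycle level was fitted beside age, Gdf3 had an edgeR adjusted p of 0.00223. Leaving out young replicate 4 alone gave a log2 fold change of 1.05 (edgeR adjusted p 0.0569). All these fits reuse the counts that chose Gdf3, so their p-values are descriptions and no separate evidence.

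**Figure D1:**
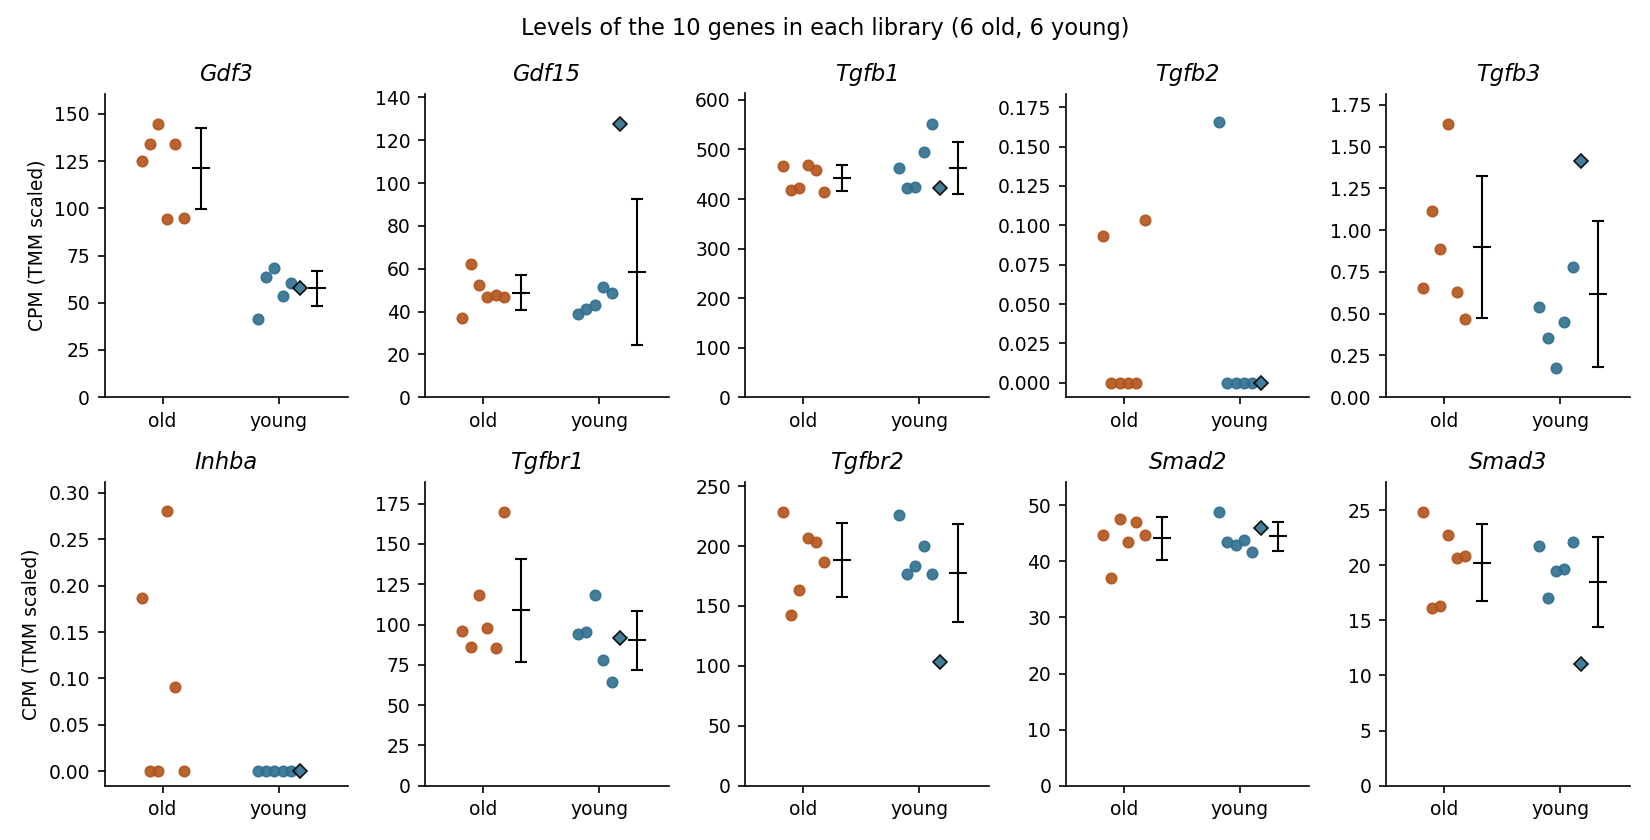
Level of each of the 10 genes in CPM (linear axes, a scale of its own for each gene) in 6 old libraries (brown) and 6 young libraries (blue), with the mean and SD to the right of the points for the 8 genes that passed the low-count filter; the black-edged diamond is young replicate 6. The old Gdf3 points lie between 94.1 and 145 CPM, above all young points, whereas the groups of the other genes overlap and young replicate 6 is the high Gdf15 point at 128 CPM.

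Gdf3 is encoded by ENSMUSG00000030117 on the minus strand of chromosome 6 from 122605403 to 122610087 in GRCm38, a short gene of 3 exons and 2423 exon bases. No other annotated exon overlapped it, which matters because the counts do not keep the strand. The 10 tested genes nearest to it, 5 on each side and within 288 kb, had log2 fold changes from -0.17 to 0.64 with a median of 0.08, and 0 of 10 were called. Apobec1, a cytidine deaminase that edits RNA, lies 2.96 kb away and was at 300 ± 45.4 CPM in old and 264 ± 38.4 CPM in young libraries (SD, n = 6 each), with an edgeR adjusted p of 0.770. Dppa3, a gene of germ cells and early embryos on the other side at 16.3 kb, was at 3.47 ± 1.64 CPM in old and 2.94 ± 0.439 CPM in young libraries. Foxj2, a forkhead transcription factor, was at 56.9 ± 2.10 CPM in old and 51.8 ± 3.83 CPM in young libraries, with an edgeR adjusted p of 0.770. C3ar1, the receptor of complement C3a, was the most abundant neighbour at 1024 ± 166 CPM in old and 1003 ± 221 CPM in young libraries. The old and young ranges of each of the 10 neighbours overlapped.

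Among the other ligands none passed the test, as was so for all but 2 of the 12620 genes tested. Tgfb1 (ENSMUSG00000002603, chromosome 7, plus strand, 25687002 to 25705077) had 466, 418, 422, 470, 460 and 414 CPM in old libraries, against 462, 422, 424, 495, 552 and 422 CPM in young ones. The groups overlapped, and young replicates 4 and 5 lay above every old library. Its means were 442 ± 26.1 CPM in old and 463 ± 52.5 CPM in young libraries (SD, n = 6 each), a log2 fold change of -0.07 with a standard error of 0.08 and an edgeR adjusted p of 0.837. An interval of 2 standard errors spanned folds from 0.856 to 1.06, and without young replicate 5 the log2 fold change was -0.0116.

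Gdf15 (ENSMUSG00000038508, chromosome 8, minus strand, 70629393 to 70632456) had 36.9, 62.3, 52.4, 47.0, 48.0 and 46.6 CPM in old libraries, against 38.9, 41.1, 42.9, 51.4, 48.7 and 128 CPM in young ones. Young replicate 6 stood far above the other 11. Old replicates 2 and 3 lay above the other 5 young libraries, and old replicate 1 lay below them. Means were 48.8 ± 8.32 CPM in old and 58.5 ± 34.2 CPM in young libraries (SD, n = 6 each), with a log2 fold change of -0.26, a standard error of 0.28 and an edgeR adjusted p of 0.828. When young replicate 6 was left out the young mean was 44.4 ± 5.08 CPM (SD, n = 5), the log2 fold change turned to 0.13 and the edgeR adjusted p was 0.815.

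Tgfb3 (ENSMUSG00000021253, chromosome 12, minus strand, 86056745 to 86079041) was close to the limit of counting. It had 0.654, 1.12, 0.889, 1.64, 0.632 and 0.466 CPM in old libraries, against 0.537, 0.354, 0.175, 0.449, 0.779 and 1.42 CPM in young ones, from 116 counts over the old and 88 over the young libraries. The highest young value was again that of replicate 6, above all old values but one. Its log2 fold change was 0.53 with a standard error of 0.44 and an edgeR adjusted p of 0.793, and without young replicate 6 these were 0.96, 0.39 and 0.775. Without old replicate 4, the highest old library, the log2 fold change was 0.27 with an edgeR adjusted p of 0.934, and without young replicate 3, the lowest of all, it was 0.34. Exons of 2 genes on the opposite strand, Gm37804 and Gm48008, covered 12.4% of the Tgfb3 exon bases. Reads in these shared bases could not be assigned by strand, and whether they were counted for Tgfb3 or left out was not checked.

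Tgfb2 and Inhba were barely detected and did not pass the low-count filter, so 8 of the 10 genes were tested. Tgfb2 (ENSMUSG00000039239, chromosome 1, minus strand, 186622792 to 186705989) had 2 counts in each of old replicates 1 and 6 and 4 counts in young replicate 1, and 0 in the remaining 9 libraries. Inhba (ENSMUSG00000041324, chromosome 13, plus strand, 16011851 to 16031621), whose product forms activin A, had 4, 0, 0, 6, 2 and 0 counts in old libraries, against 0 in all 6 young libraries. A count of 0 allows up to 0.155 CPM in an old and 0.135 CPM in a young library (3 counts, counting error only). This limit holds for a single library and not for a group mean. Inhba lay above it in old replicates 1 and 4, at 0.187 and 0.281 CPM, and below it in old replicate 5, at 0.0903 CPM. Neither gene was tested between the ages, so no fold is given. All 6 counts above 0 of these genes were even, and where both mates of a fragment were counted such values stand for fewer molecules.

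Inside each library, Gdf3 took a larger part of the ligand transcript in old cells. Levels of different genes are compared here as CPM per kilobase of exon. Gdf3 made up 31.5%, 32.2%, 34.7%, 24.6%, 32.0% and 26.7% of the summed level of the 6 ligands in old libraries, against 13.1%, 19.8%, 20.8%, 14.97%, 15.6% and 13.5% in young ones. The lowest old share exceeded the highest young share, which is a description, since it rests on the gene that was chosen. Mean shares were 30.3% ± 3.82 in old and 16.3% ± 3.27 in young libraries (SD, n = 6 each). Tgfb1 was the largest ligand in every library, at 53.5% ± 4.41 in old and 62.9% ± 8.24 in young ones. In young replicate 6 the Tgfb1 share was 47.3% and Gdf15 took 38.9%, against 16.2% to 18.7% for Gdf15 in the other 5 young libraries. The ratio of Gdf3 to Tgfb1 per kilobase was 0.573 ± 0.113 in old and 0.263 ± 0.0580 in young libraries, and the ratio of Gdf3 to Tgfbr2 was 2.25 ± 0.687 in old and 1.18 ± 0.428 in young ones. Summed over the 6 ligands the level was 164 ± 10.4 CPM per kilobase in old and 147 ± 18.6 in young libraries.

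**Figure D2:**
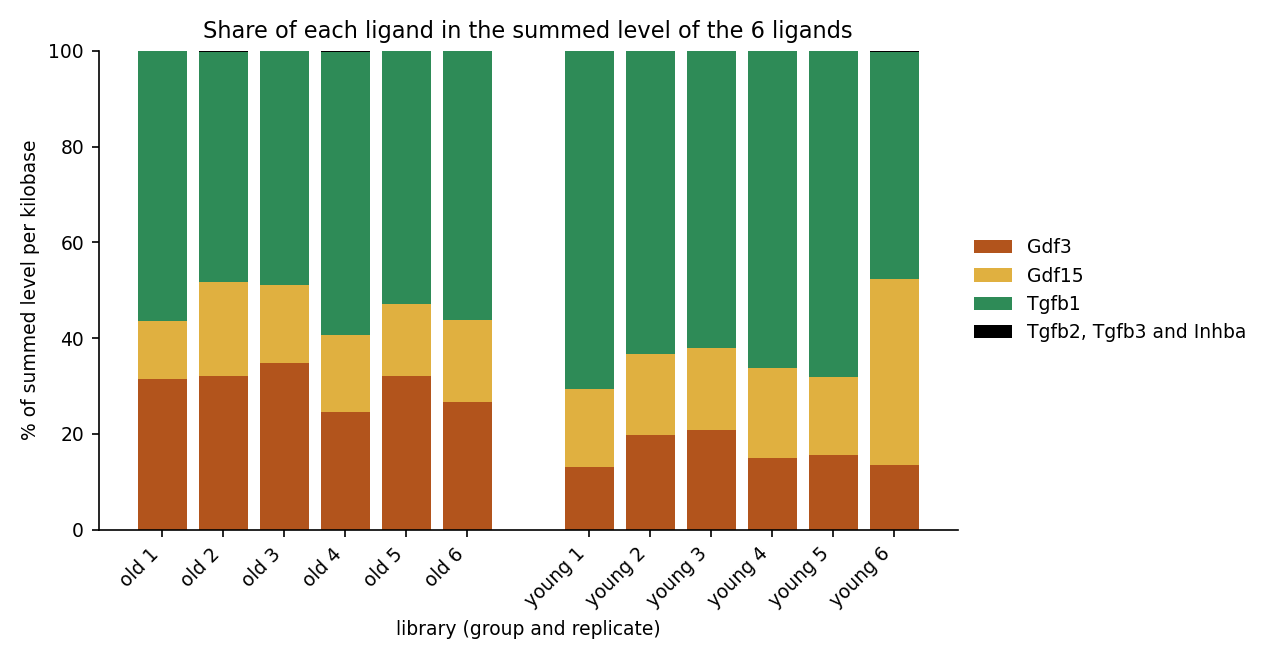
Share of each ligand (percent of the level per kilobase summed over the 6 ligands) in 6 old and 6 young libraries, as stacked bars from 0. The Gdf3 part lies between 24.6% and 34.7% in old libraries and between 13.1% and 20.8% in young ones, and the Gdf15 part of young replicate 6 reaches 38.9%; Tgfb2, Tgfb3 and Inhba together are barely visible.

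Ordered by level per kilobase over all 12 libraries, Tgfb1 came first at 89.7 ± 8.15 CPM per kilobase, and no other gene of the list reached its lowest value of 82.2 in any library. Gdf3 followed at 36.9 ± 15.2, then Gdf15 at 29.0 ± 13.1, Tgfbr2 at 22.4 ± 4.30 and Tgfbr1 at 15.2 ± 4.09 CPM per kilobase (SD, n = 12 each). These 4 neighbours overlapped in their ranges. Gdf3 exceeded Gdf15 in 6 of 6 old and in 2 of 6 young libraries, so which of them stood higher was not the same in all libraries. Smad2 at 5.04 ± 0.350 and Smad3 at 3.50 ± 0.671 CPM per kilobase came next, with overlapping ranges, yet Smad2 was above Smad3 in all 12 libraries. Tgfb3 at 0.224 ± 0.129 CPM per kilobase was far below them, and Inhba and Tgfb2 lay last, below 0.01 CPM per kilobase on average.

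**Figure D3:**
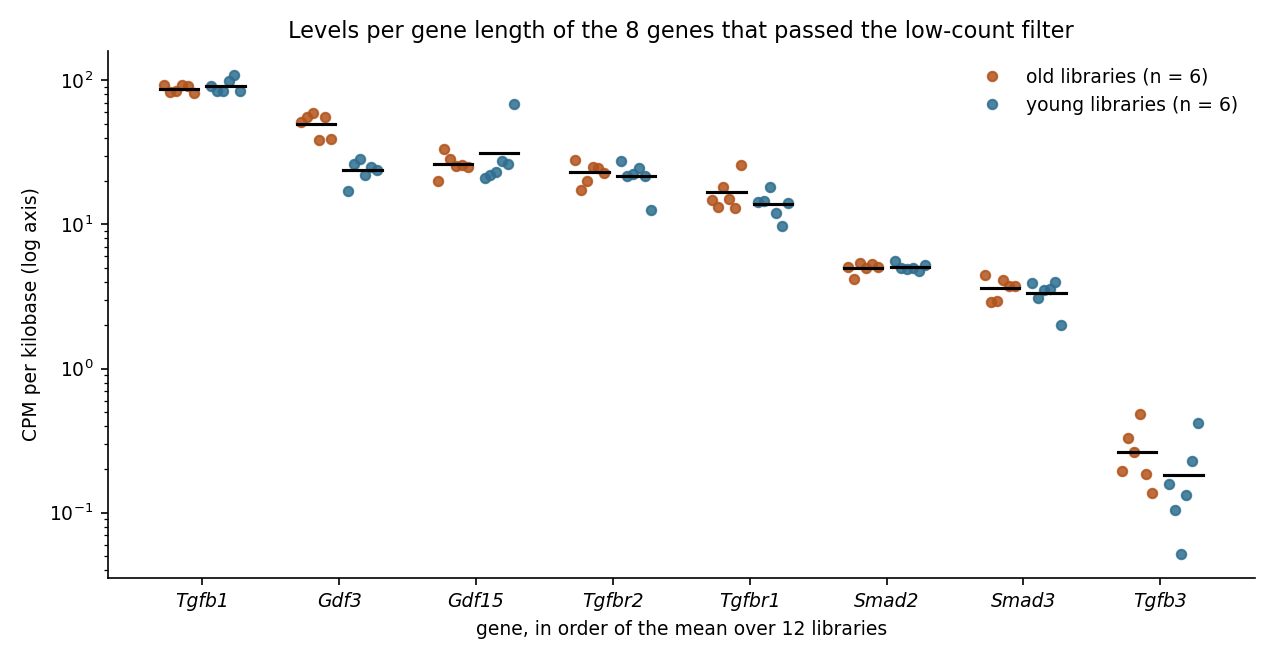
Level of the 8 genes that passed the low-count filter in CPM per kilobase (log axis), in order of their mean over 12 libraries, with 6 old libraries (brown, left) and 6 young libraries (blue, right) for each gene and a bar at each group mean. Gdf3 is the gene whose old points, 38.8 to 59.7, lie wholly above its highest young point, 28.2.

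Neither receptor of TGF-beta passed the test, and for both the ages overlapped. Tgfbr1 (ENSMUSG00000007613, chromosome 4, plus strand, 47353222 to 47414931), the type I receptor also known as ALK5, had 96.1, 86.0, 119, 97.8, 85.5 and 170 CPM in old libraries, against 94.1, 95.4, 118, 77.9, 64.1 and 91.7 CPM in young ones. The highest value was that of old replicate 6, the library with the high Atp6v0d2 and the T and NK cell markers given above. The part of these in the Tgfbr1 value was not tested. Means were 109 ± 32.1 CPM in old and 90.2 ± 18.2 CPM in young libraries (SD, n = 6 each), with a log2 fold change of 0.27, a standard error of 0.18 and an edgeR adjusted p of 0.770. Leaving out old replicate 6 gave a log2 fold change of 0.10 (edgeR adjusted p 0.999).

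Tgfbr2 (ENSMUSG00000032440, chromosome 9, minus strand, 116084293 to 116175360), the type II receptor that binds TGF-beta first, had 228, 143, 163, 207, 203 and 187 CPM in old libraries, against 226, 177, 183, 200, 177 and 103 CPM in young ones. The lowest values in each group were those of its libraries with most cell cycle transcript, old replicates 2 and 3 and young replicate 6. Means were 188 ± 31.1 CPM in old and 178 ± 41.1 CPM in young libraries, with an edgeR adjusted p of 0.904. Its log2 fold change of 0.09 had a standard error of 0.16, so that folds from 0.848 to 1.33 lay within 2 standard errors, and without young replicate 6 it was -0.03. When the cell cycle level was fitted beside age it was 0.0099. The ratio of Tgfbr2 to Tgfbr1 per kilobase was 1.46 ± 0.429 in old and 1.63 ± 0.509 in young libraries, and the lowest ratios were 0.878 in old replicate 6 and 0.897 in young replicate 6.

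Smad2 and Smad3 are the receptor-activated SMADs of the TGF-beta and activin branch. Smad2 (ENSMUSG00000024563, chromosome 18, plus strand, 76241580 to 76310963) varied least of the tested genes of the list relative to its mean over the 12 libraries, at 44.7, 37.0, 47.5, 43.5, 47.1 and 44.8 CPM in old libraries and 48.7, 43.5, 42.9, 43.9, 41.7 and 46.0 CPM in young ones. The means of 44.1 ± 3.78 CPM in old and 44.5 ± 2.53 CPM in young libraries gave a log2 fold change of -0.01 with a standard error of 0.07 and an edgeR adjusted p of 0.971, and 2 standard errors spanned folds from 0.900 to 1.09. Smad3 (ENSMUSG00000032402, chromosome 9, minus strand, 63646767 to 63757994) had 24.8, 16.1, 16.3, 22.7, 20.7 and 20.8 CPM in old libraries, against 21.7, 17.1, 19.5, 19.6, 22.1 and 11.1 CPM in young ones. As for Tgfbr2, the lowest Smad3 values were in old replicates 2 and 3 and in young replicate 6. Smad3 had a log2 fold change of 0.13 with a standard error of 0.16 and an edgeR adjusted p of 0.853. That Smad3 fold change was 0.0181 on the log2 scale without young replicate 6 and 0.0617 without old replicate 1, and with the cell cycle level fitted beside age it was 0.051. The ratio of Smad2 to Smad3 per kilobase was 1.41 ± 0.248 in old and 1.61 ± 0.514 in young libraries, with the highest value, 2.62, in young replicate 6.

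Calls over all 12620 genes tested numbered 2, or 0.0158%, and were Bmpr1a and Gdf3. Of the 134 other genes of the pathway examined, 67 passed the low-count filter, and 1 of these was called, Bmpr1a, higher in old. Their median log2 fold change was 0.05, against -0.01 for all genes tested, and 3 of the 67 had an unadjusted p under 0.05, against 5.47% of all genes tested. Of the 27 remaining ligands, 16 had no count in any library and 2, Bmp2 and Gdf9, were tested. Bmp2, a BMP ligand, ran from 1.12 CPM to 12.1 CPM in old libraries with a median of 7.20, and from 0.162 CPM to 12.0 CPM in young ones with a median of 7.44. It varied widely between libraries of one age, and its lowest values were those of young replicate 6 and old replicate 2. Its log2 fold change was -0.02 with a standard error of 0.73 and an edgeR adjusted p of 0.994. Gdf9, an oocyte factor, was at 1.61 ± 0.520 CPM in old and 1.79 ± 0.416 CPM in young libraries. Nodal, Bmp4, Bmp7 and Inhbb were among those without a count.

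Of 19 other receptors and co-receptors, 11 were tested and 1 was called. Bmpr1a, the type I BMP receptor also known as ALK3, had 15.5, 12.6, 15.6, 11.5, 13.1 and 14.8 CPM in old libraries, against 0.662, 0.795, 1.32, 0.539, 0.433 and 0.970 CPM in young ones. Every old library was far above every young one, with a log2 fold change of 4.13, a standard error of 0.22 and an edgeR adjusted p of 5.31e-07. Like Gdf3, it was known from the earlier test of these counts, and its values are given as a description. The receptors through which Gdf3 is known to act in mouse embryos were looked up by role and not by how they moved. Acvr1b, the type I receptor ALK4, was at 44.8 ± 2.72 CPM in old and 44.0 ± 2.28 CPM in young libraries (SD, n = 6 each), with an edgeR adjusted p of 0.919. Acvr2a, a type II activin receptor, was at 7.18 ± 1.58 CPM in old and 5.69 ± 1.34 CPM in young libraries, with a log2 fold change of 0.33, a standard error of 0.18 and an edgeR adjusted p of 0.770. Its sister Acvr2b was at 1.07 ± 0.248 CPM in old and 1.23 ± 0.599 CPM in young libraries. Acvr1c, which encodes ALK7, Tdgf1, which encodes the co-receptor Cripto, and Gfral, the Gdf15 receptor, had no count in any of the 12 libraries.

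**Figure D4:**
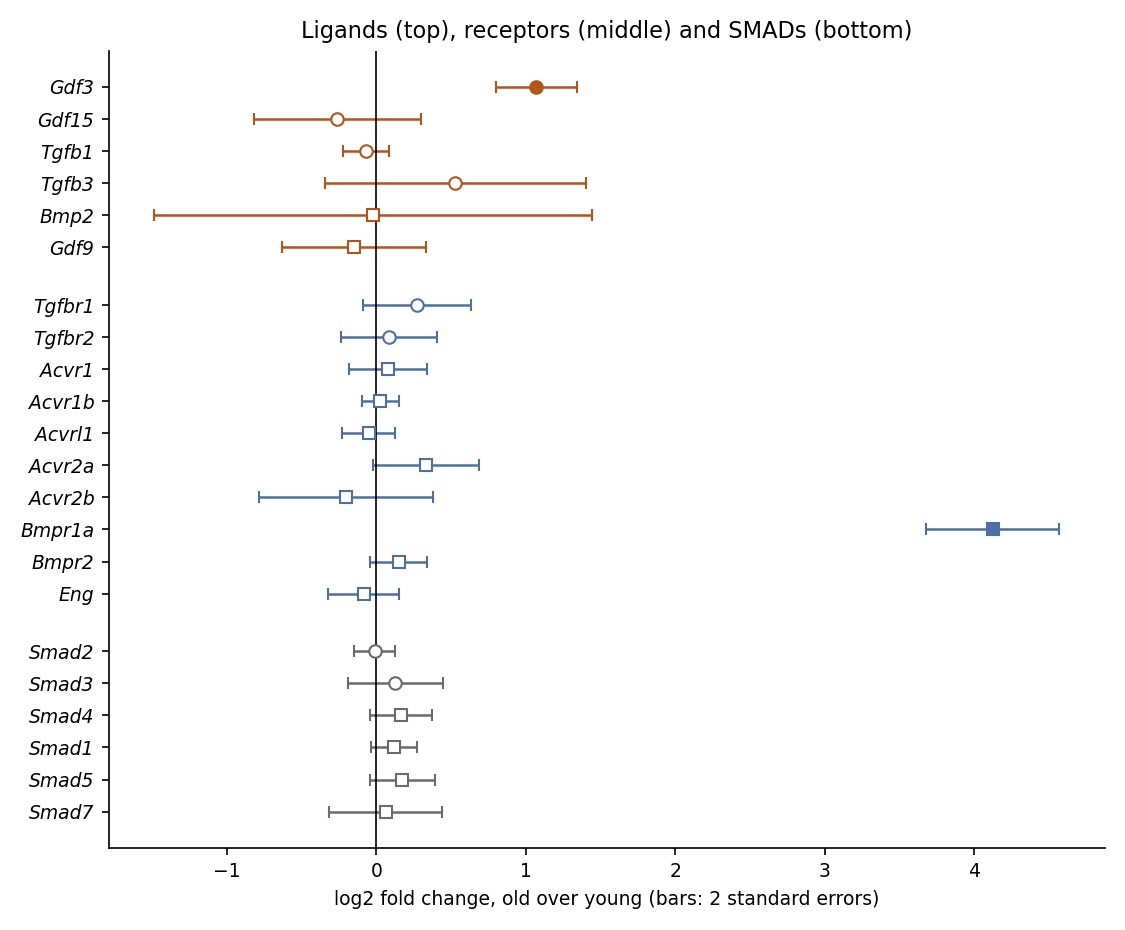
Log2 fold change, old over young, with bars of 2 standard errors, for ligands (brown), receptors (blue) and SMADs (grey); circles are genes of the list of 10, squares other pathway genes, and filled symbols have an edgeR adjusted p under 0.05. Gdf3 at 1.07 and Bmpr1a at 4.13 are the filled symbols, and the bars of every other gene drawn include 0.

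No gene was called among the other SMADs, the proteins that release or hold TGF-beta, or the inhibitors. With 0.0158% of all genes tested called, these counts do not set the lists apart from other genes. Of 6 other SMADs 5 were tested. Smad4, the partner shared by both branches, was at 50.1 ± 5.48 CPM in old and 44.7 ± 6.18 CPM in young libraries, and Smad5 was at 16.6 ± 2.40 CPM in old and 14.7 ± 1.82 CPM in young ones. Smad1, which with Smad5 serves the BMP branch, was at 23.4 ± 0.906 CPM in old and 21.5 ± 2.26 CPM in young libraries (SD, n = 6 each), and all 3 had an edgeR adjusted p of 0.770. Of 18 genes of latency and activation, 10 were tested and 0 called. Itgb5, an integrin subunit that takes part in releasing latent TGF-beta, was at 442 ± 13.5 CPM in old and 435 ± 33.3 CPM in young libraries. Nrros, which tethers latent TGF-beta 1 on myeloid cells, was at 509 ± 55.4 CPM in old and 515 ± 83.5 CPM in young libraries. Ltbp3, a latent TGF-beta binding protein, was at 50.1 ± 2.43 CPM in old and 42.4 ± 7.23 CPM in young libraries, with a log2 fold change of 0.24, a standard error of 0.11 and an edgeR adjusted p of 0.770. Thbs1, thrombospondin 1, an activator of latent TGF-beta, was at 92.9 ± 59.6 CPM in old and 56.4 ± 33.4 CPM in young libraries, and its values ran from 2.71 CPM in young replicate 6 to 174 CPM in old replicate 4.

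Of 17 extracellular inhibitors 4 were tested and 0 called. Bambi, a decoy receptor, was at 11.6 ± 0.773 CPM in old and 10.7 ± 1.39 CPM in young libraries, and Dand5, a secreted antagonist, was at 3.83 ± 0.589 CPM in old and 3.44 ± 0.593 CPM in young ones. Of 22 regulators inside the cell 21 were tested and 0 called (0.0158% of all genes tested were called), with a median log2 fold change of 0.07. Wwp1, a ubiquitin ligase, was the most abundant per kilobase, at 320 ± 41.8 CPM in old and 290 ± 75.2 CPM in young libraries. Fkbp1a, which holds type I receptors inactive, was at 150 ± 11.9 CPM in old and 164 ± 9.25 CPM in young libraries. The deubiquitinase Usp15 was at 65.4 ± 2.87 CPM in old and 71.0 ± 4.24 CPM in young libraries. Xiap, a ubiquitin ligase linked to this pathway through TAK1, was at 35.7 ± 11.7 CPM in old and 26.6 ± 3.40 CPM in young libraries, with its highest value, 55.8 CPM, in old replicate 6. All 3 of Fkbp1a, Usp15 and Xiap had an edgeR adjusted p of 0.770.

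Of 30 target genes of TGF-beta and BMP signalling 19 were tested and 0 called, where 0.0158% of all genes tested were called. The median log2 fold change of these targets was -0.0024, against -0.01 for all genes tested. Cdkn1a, a cell cycle inhibitor and the most abundant target per kilobase, was at 207 ± 30.0 CPM in old and 254 ± 69.8 CPM in young libraries, with an edgeR adjusted p of 0.770. Junb, a subunit of AP-1, was at 107 ± 7.18 CPM in old and 108 ± 8.01 CPM in young libraries. A further 3 target genes not taken by the naming rule were picked after their values were seen, the BMP-responsive Id1, Id3 and Smad6, because 1 library decided their group means. Id1, an inhibitor of differentiation, had 1.31, 3.07, 2.31, 1.31, 1.40 and 1.35 CPM in old libraries, against 0.579, 0.354, 1.14, 0.674, 0.779 and 38.6 CPM in young ones. Id3, of the same family, had 24.4, 59.3, 58.4, 24.9, 25.9 and 27.3 CPM in old libraries, against 8.72, 14.9, 19.3, 11.9, 10.6 and 196 CPM in young ones. For both genes young replicate 6 was the highest of the 12 libraries, and the other 5 young libraries all lay below every old one.

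With all libraries the edgeR adjusted p was 0.770 for Id1, with a log2 fold change of -1.97 and a standard error of 1.15, and 0.944 for Id3. Without young replicate 6 the log2 fold change of Id1 was 1.34 with a standard error of 0.33, and that of Id3 was 1.49 with a standard error of 0.33. Their unadjusted p-values in edgeR's model were then 0.00121 for Id1 and 0.000913 for Id3, and the adjusted p was 0.775 for both, so neither passed, while 3 of 12704 genes, or 0.0236%, did. Groups that do not overlap, old above young, were then seen for 35 of 12704 genes, or 0.276%, with Smad1, at 23.3 ± 0.917 CPM in old (SD, n = 6) and 20.6 ± 1.09 CPM in young libraries (SD, n = 5), also among them. Smad6, an inhibitory SMAD, was at 25.4 CPM in young replicate 6, against 0.948 to 3.65 CPM in old and 0.606 to 1.77 CPM in the other young libraries. In young replicate 6, Id1, Id3, Smad6 and Gdf15 thus stood highest of the 12 libraries while Bmp2, Thbs1, Tgfbr2 and Smad3 stood lowest. This library was also the highest in cell cycle transcript, and old replicates 2 and 3, next in that order, were next highest in Id1, Id3 and Smad6; the part of cell cycle level in these values was not tested. Of the 67 pathway genes tested, young replicate 6 was highest or lowest in 55.2%, close to its 51.0% of all genes tested.

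**Figure D5:**
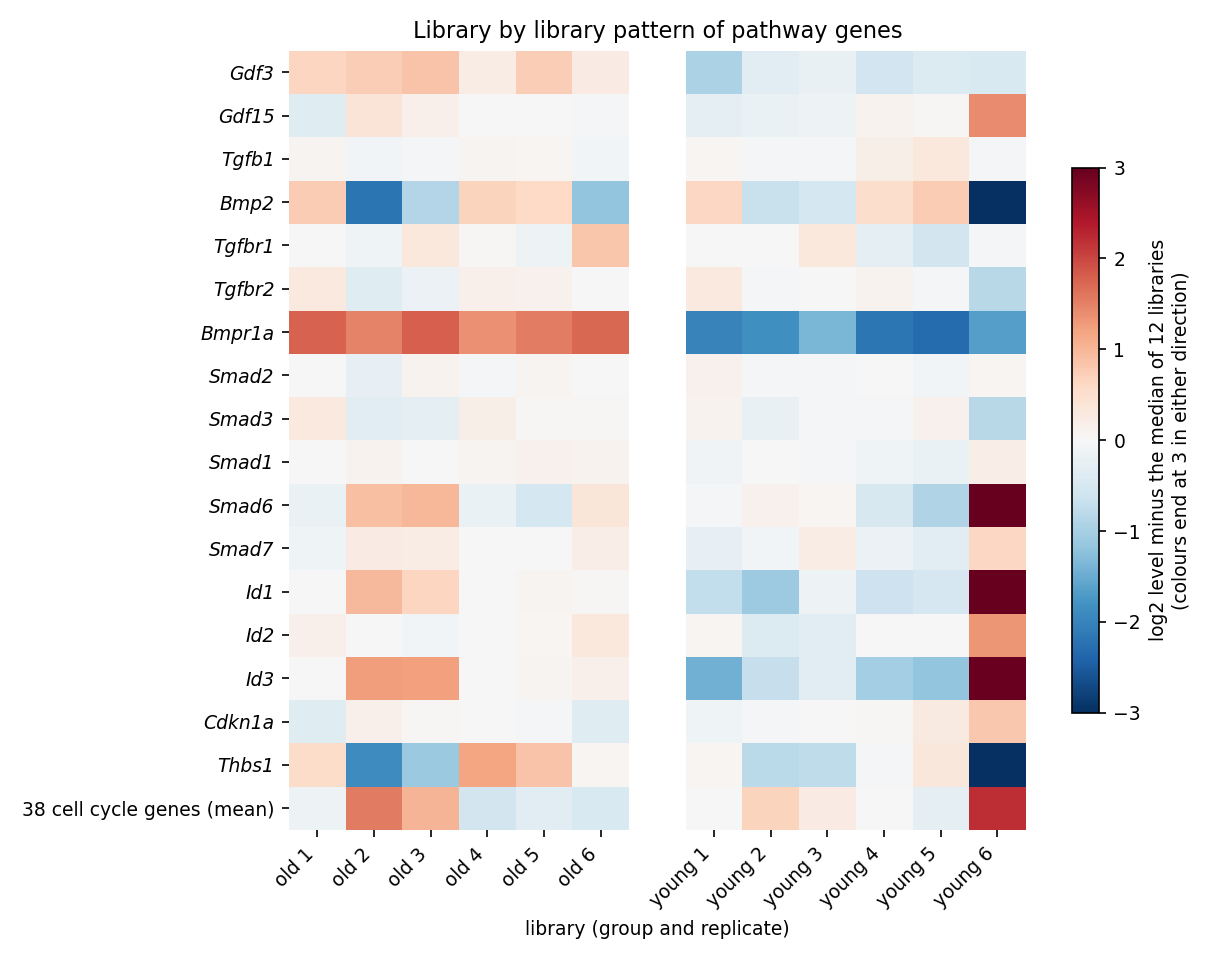
Heat map of 17 pathway genes and of the mean of 38 cell cycle genes (rows) in 6 old and 6 young libraries (columns); colour is log2 of CPM plus 0.5, or the mean log2 CPM for the last row, minus the median of the 12 libraries, red for higher and blue for lower. Gdf3 and Bmpr1a divide by age, while Id1, Id3, Smad6, Bmp2 and Thbs1 are most extreme in young replicate 6, which has the highest cell cycle mean, 6.55.

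Library by library within each age, Gdf3 had weak to moderate correlations with the other genes of the list compared. After the mean of each group was removed, Pearson's r with Gdf3 over the 12 libraries lay between -0.364 for Tgfbr2 and 0.147 for Gdf15 among the 6 other genes of the list of at least 5 CPM, and was 0.338 for Bmpr1a. Spearman's rho lay between -0.462 for Tgfbr2 and 0.294 for Gdf15, and was 0.441 for Bmpr1a. Without young replicate 6 and old replicates 2 and 3, r was lowest for Smad2, at -0.422. Of 9423 other genes of at least 5 CPM, the 5 most like Gdf3 included Acbd4, with an r of 0.878, Exo5 at 0.870, Atg16l2 at 0.870 and Palld at 0.849. The 5 that moved most against it were Snhg12 at -0.879, Tefm at -0.847, Eif1a at -0.846, Pkib at -0.838 and Zfp84 at -0.831. These are the extremes of many correlations over 12 libraries that share their group means and scaling. Of the 10 genes chosen in this way, 2 were also among the 10 chosen by Spearman's rho, and 1 was among those chosen without young replicate 6 and old replicates 2 and 3. Without these 3 libraries r was still 0.811 to 0.89 for the 5 most like Gdf3 and -0.938 to -0.842 for the 5 most unlike. The libraries that remained had also served to choose these genes.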

How the data were processed

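The authors deposited whole, unnormalised counts per gene for 12 libraries, with a summary of assigned records; both were used. Counting used featureCounts 1.6.0 and Ensembl release 100 of GRCm38, per the file headers, with no strand option and no pairing of mates. The submitters' processing notes also name FastQC, STAR and mm10, with no version. Libraries were made with a TruSeq RNA v2 kit, which does not keep strand, per the labels' protocols. Even totals of unmapped and multiply aligned records in 12 of 12 libraries mean that counts may be of mates and not of fragments. The gene length column of the deposited table, another quantity than a count, gave the levels per kilobase. No count column was left unused (0). Genes without a symbol held 0.00438% of counts.

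Counts were tested with edgeR 4.0.16 (limma 3.58.1, R 4.3.3), its robust quasi-likelihood F test, TMM factors and the low-count filter filterByExpr, which left 12620 of 24139 genes with a count, holding 99.91% of counts. The model held age alone, log2 fold changes are old over young, and p-values are two-sided and adjusted by Benjamini-Hochberg over all genes tested, with a threshold of 0.05. Biological variation was 21.7% (common coefficient), and log2 fold changes had a median standard error of 0.128. The test was checked on simulated counts. CPM use TMM factors, and log2 CPM a prior count of 2. Between libraries of a group the chi-square per gene was 4.82 to 161, so none was counted as a duplicate. Python 3.11.15 and matplotlib 3.10.9 were used for descriptions and figures.

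The 10 genes and all lists were chosen with earlier results of these data known. Within each wider list the called genes were named, otherwise the 2 most abundant per kilobase and the 2 of lowest p of at least 1 CPM; Acvr1b, Acvr2a, Acvr2b, Acvr1c, Tdgf1 and Gfral were added for their role, and genes outside the rule were named after their values were seen. Some genes that the rules chose are not reported here. A planned comparison of ligand protein sequences was not run. Alternatives were other scalings, other filters, DESeq2 1.42.0, limma voom, no robust estimation, a replicate block, a cell cycle covariate and libraries left out singly or 3 together.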

Additional observations from a re-analysis of the deposited data

Results flagged for a closer look

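Gdf15 in young libraries was picked out because 1 sample lay far from the others. Replicate 6 had 128 CPM while the other 5 lay between 38.9 and 51.4 CPM, and this gap was 0.86 of the whole range of the group, above the critical value of Dixon's test for 6 samples. Of 16 groups of values looked at, 2 ages for each of the 8 genes tested, this was the 1 picked out, and chance alone picks out about 1 in 20. The same library had the highest cell cycle level of the 12, a mean log2 CPM of 6.55, and the part of this in the Gdf15 value was not tested.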

How the results depend on the processing

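The log2 fold change of Gdf3 ran from 0.96 to 1.14 over 23 alternatives (0.99 to 1.14 with 1 library left out). These reuse the counts that chose Gdf3, so a pass is no separate evidence, and Gdf3 passed the threshold in 21 of them. It did not pass without young replicate 4 (1.05, edgeR adjusted p 0.0569) and without young replicate 6 and old replicates 2 and 3 together (0.96, edgeR adjusted p 0.121); the cause was not tested, though fewer samples entered both. Genes called over the whole table numbered 2, against 4 with no low-count filter, 15 by DESeq2, 5 with the cell cycle covariate and 1 to 5 with 1 library left out (1 without young replicate 4, 5 without young replicate 3). With a replicate block 4 genes were called, and for Gdf3 the log2 fold change was 1.07 (adjusted p 0.0423); the labels tie the numbers to no shared animal or batch. Same-numbered libraries correlated in their deviations at 0.549, 0.185, -0.0241, 0.650, 0.623 and -0.261 for replicates 1 to 6, and 4 of the 12 libraries correlated best with the library of their own number in the other group. In all 23 alternatives 0 of the other members tested and 1 pathway gene outside the list, the same number as before, were called. Smad2 changed sign with library size alone (0.0037), without the 3 libraries (0.0279), and without old replicate 2 or young replicate 1, with a range of -0.0324 to 0.0352 over the single libraries left out. Gdf15 (-0.35 to 0.13 over these) and Tgfbr2 (-0.0305 to 0.17) changed sign without young replicate 6, and none of the 3 was called. Tgfb3 could not be tested with the stricter filter of 5 CPM. Without division by gene length Gdf3 made up 19.7% of the ligand level in old and 10.0% in young libraries. With 1 library left out the share was 29.4% to 31.4% in old and 15.4% to 16.9% in young ones.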

Other observations

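Lefty1, an inhibitor of Nodal signalling, had the most counts of the ligands outside the list of 10 that did not pass the low-count filter, with 111 counts over the 12 libraries and 0.809 CPM at most. Amh had 48 counts and Gdf11 had 47 over the 12 libraries. No other ligand outside the list of 10 that failed the filter had more than 8 counts. Endoglin (Eng), a co-receptor for TGF-beta 1, was the most abundant of the other receptors per kilobase, at 96.6 ± 9.42 CPM in old and 102 ± 21.6 CPM in young libraries (SD, n = 6 each), with an edgeR adjusted p of 0.866. Tgfbi, a matrix protein induced by TGF-beta, was at 214 ± 63.7 CPM in old and 231 ± 51.6 CPM in young libraries, with an edgeR adjusted p of 0.903.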
